A study of Homo sapiens with 6 samples.

Results

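The 10 genes described here encode proteins that recognise the 3′ end of introns, or spliceosome proteins that are mutated in myelodysplastic syndromes (MDS), clonal disorders of blood formation. They were taken by gene symbol from a table of 31142 genes and are U2AF1, U2AF1L5, U2AF1L4, U2AF2, SF1, SF3B1, ZRSR2, LUC7L2, PRPF8 and DDX41. Each symbol had a single gene identifier, and all 10 were among the 10942 genes with a mean of at least 1 FPKM (a fragment count corrected for transcript length and for library size), which were tested. RNA was sequenced from 6 libraries labelled SKM-1, a leukaemia line derived from MDS, all taken at 96 h. The genotype label was S34F mutant U2AF1 for 3 libraries, called S34F here, and the wild-type form for the other 3, called WT. Both forms were introduced by a lentiviral vector that carried the U2AF1 open reading frame with a carboxy-terminal FLAG tag behind a ubiquitin promoter, together with GFP and puromycin resistance. The study describes the RNA-seq as a comparison of cells that express either form. The titles of the WT libraries, however, carry a prefix that the study uses for its negative controls, and its methods speak of a vehicle control, so the labels alone do not settle whether the WT cells carried the wild-type construct. The number of clones is not given in the sources used here.

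Splicing of most introns begins when SF1 binds the branch point and the U2AF heterodimer binds the 3′ splice site. In that dimer the large subunit U2AF2 contacts the polypyrimidine tract and the small subunit U2AF1 contacts the AG dinucleotide at the intron end. U2 snRNP, with SF3B1 as its largest protein, then replaces SF1 at the branch point, and U5 snRNP, with PRPF8 at its centre, joins before catalysis. ZRSR2 takes the place of U2AF1 at introns of the minor (U12-type) class. The S34F change lies in the first zinc finger of U2AF1 and alters which base before the AG is preferred. It is known for its effect on exon choice, which the gene totals given here do not measure.

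The sequence around the altered codon is shown first because it decides what a gene total can say about the construct. The windows below were read from the GENCODE 29 coding transcripts (GRCh38) and span 63 bases from coding base 70 on, with codon 34 in capitals. They lie in coding exons on the minus strand, at chr21:43104315-43104377 in U2AF1, chr21:6495993-6496055 in U2AF1L5 and chr19:35745125-35745187 in U2AF1L4.
U2AF1: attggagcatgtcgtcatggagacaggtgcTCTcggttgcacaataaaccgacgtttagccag
U2AF1L5: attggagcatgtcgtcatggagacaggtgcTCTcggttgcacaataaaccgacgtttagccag
U2AF1L4: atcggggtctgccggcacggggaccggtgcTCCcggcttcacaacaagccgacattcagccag
Codon 34 is TCT in U2AF1 and in U2AF1L5 and TCC in U2AF1L4, and each encodes serine, the residue that S34F replaces with phenylalanine. U2AF1L5 is a second annotated copy of U2AF1 on the same chromosome. Its main coding sequence of 720 bases differed from that of U2AF1 at 0 positions. The alternative coding form of 720 bases was likewise the same in both genes and differed from the main form at 23 positions. Of the 11807 windows of 100 bases in U2AF1 transcripts, 10557 (89.4%) occurred in U2AF1L5 as well, whereas 0 occurred in U2AF1L4. Reads from the U2AF1 locus, from U2AF1L5 and from the coding part of either construct could therefore be assigned to either copy. The level of each copy taken alone is uncertain, and the values do not show whether U2AF1L5 is itself transcribed. The table has 1 value per gene and no separate entry for the construct, so mutant, introduced wild-type and endogenous transcripts cannot be told apart.

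The files give no depth per library. An approximate depth was read from steps in the values of genes with a single annotated transcript of a single exon. It was 20500000, 23200000 and 24800000 fragments in S34F replicates 1, 2 and 3. In WT replicates 1, 2 and 3 it was 25900000, 26100000 and 24700000 fragments. The number of genes listed at 0 was lowest in S34F replicate 3, at 6000, against 6637 to 7915 in the other libraries. The label of the cells was checked against marker genes. All 12 erythroid markers reached a mean of 1 FPKM, and their summed level was 12200 to 13960 FPKM in S34F and 11780 to 12910 FPKM in WT libraries. Of 12 myelomonocytic markers, which the SKM-1 label would lead one to look for, 4 reached a mean of 1 FPKM and 5 were under 0.1, among them MPO, with a summed level of 24.2 to 37.7 FPKM in S34F and 34.7 to 38.1 FPKM in WT libraries. The markers thus went against a myelomonocytic identity, and the cells are referred to by their construct labels only. All 4 tested myelomonocytic markers had lower mean log2 levels in S34F. Of these, ITGAM (1.81 ± 0.400 against 3.03 ± 0.587 FPKM) and CD33 (2.05 ± 0.406 against 2.83 ± 0.374 FPKM, SD, n = 3 each) had groups that did not overlap and an unadjusted limma p under 0.05, with an adjusted p = 1 after Benjamini-Hochberg. Of all tested genes, 7.38% had groups that did not overlap and 2.39% had an unadjusted limma p under 0.05. These marker differences are therefore descriptions only. Markers of the same list under 1 FPKM, which were not tested, had higher S34F means in some cases. Examples were CEBPA (0.852 against 0.577 FPKM, groups apart) and CD14 (0.490 against 0.290 FPKM). What part cell make-up had in the values below was not tested. In bulk RNA, fewer cells of a type and less RNA per cell cannot be told apart.

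None of the 10 genes passed the test for a difference between the S34F and WT libraries. With limma on log2(FPKM + 1) and Benjamini-Hochberg adjustment over all 10942 genes, 0 of the 10 had an adjusted p under 0.05, against 0.0% of all tested genes, and 0 of the 10 had an unadjusted p under 0.05, against 2.39% (262 genes). The median log2 fold change of the 10 (S34F minus WT) was 0.0155, and that of all tested genes was 0.0145. The 95% intervals of the fold on the FPKM + 1 scale ran from 0.695 at the lowest (ZRSR2) to 1.37 at the highest (LUC7L2). These tests measure the spread between the 3 libraries of a group, which the study calls independent RNA samples without saying whether they came from separate cultures. The adjusted p was 1 for each of the 10 genes. Gene positions below are those of GENCODE 29 (GRCh38).

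U2AF1 (ENSG00000160201, chr21:43092956-43107587, minus strand), the small subunit and the gene carried by the construct, was measured at 9.24, 9.48 and 9.18 FPKM in S34F replicates 1, 2 and 3. It stood at 8.67, 8.70 and 7.65 FPKM in the corresponding WT replicates. All 3 S34F libraries were above all 3 WT libraries, and WT replicate 3 was the lowest. The S34F mean was 9.30 ± 0.159 FPKM and the WT mean 8.34 ± 0.595 FPKM (SD, n = 3 each). The log2 fold change of 0.14 (SE 0.0998) had a 95% interval of 0.937-fold to 1.30-fold and did not pass limma's test (adjusted p = 1 after Benjamini-Hochberg). A two-sided exact permutation test gave p = 0.1, the smallest value that 3 against 3 libraries allow. U2AF1 was the 1 gene of the 10 whose groups did not overlap, and 7.38% of all tested genes did not overlap either.

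U2AF1L5 (ENSG00000275895, chr21:6484623-6499261, minus strand) was measured at 9.44, 9.78 and 9.18 FPKM in the S34F libraries and at 10.04, 9.32 and 9.22 FPKM in the WT libraries. The groups overlapped, and the highest value was in WT replicate 1. The means of 9.46 ± 0.301 and 9.53 ± 0.450 FPKM (SD, n = 3 each) gave a log2 fold change of -0.01 (SE 0.0958), with an interval of 0.849-fold to 1.16-fold (two-sided exact permutation p = 0.8).

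Because the copies share their coding sequence, the sum of both is a more secure measure of U2AF1 transcripts than either alone. How reads that match both copies were counted is not given in the sources used here. The sum would be too low if they were dropped, and too high if they were counted in full at both copies. It was 18.68, 19.26 and 18.36 FPKM in S34F and 18.71, 18.01 and 16.87 FPKM in WT libraries. WT replicate 1 lay within the S34F range and WT replicate 3 was the lowest. The means were 18.8 ± 0.456 in S34F and 17.9 ± 0.929 FPKM in WT (SD, n = 3 each), a ratio of 1.05 that was within the spread between libraries (two-sided exact permutation p = 0.3). The share of the sum that was assigned to U2AF1 was looked at after the values had been seen. It was 49.49%, 49.24% and 50.02% in S34F and 46.34%, 48.28% and 45.36% in WT libraries, with no overlap (exact permutation p = 0.1, the smallest possible). By counting error alone, 182 to 219 fragments per library, as estimated for the transcript with the longest coding sequence (962 bases), give U2AF1 a coefficient of variation of 6.76% to 7.41%. Other annotated coding transcripts run to 1675 bases, for which the estimated number of fragments would be higher.

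**Figure D1:**
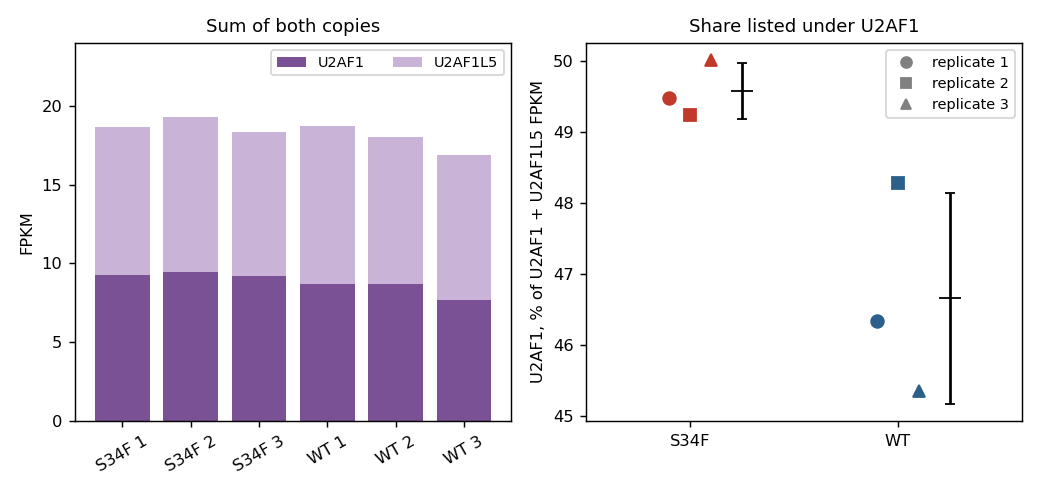
Left, FPKM of U2AF1 (dark) and U2AF1L5 (light) stacked to their sum for each of the 6 libraries. Right, the share of that sum assigned to U2AF1 in percent, one point per library with the group mean ± SD (n = 3) beside it, on an axis that does not start at 0. The sums overlap between groups, WT replicate 1 (18.71 FPKM) being above S34F replicates 1 and 3, while the shares of the S34F libraries (49.24% to 50.02%) lie above those of the WT libraries (45.36% to 48.28%).

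U2AF1L4 (ENSG00000161265, chr19:35742464-35745445, minus strand), a related gene that also encodes a small-subunit protein, was low, at 1.91, 1.97 and 1.86 FPKM in S34F and 1.99, 1.84 and 1.84 FPKM in WT libraries. The groups overlapped over a narrow range. A log2 fold change of 0.01 (SE 0.0934) was fitted, with an interval of 0.865-fold to 1.18-fold. Of the exon bases of this gene, 24.8% are shared with AD000671.2 on the same strand and 11.5% lie opposite PSENEN, a gamma-secretase subunit with a mean of 32.95 FPKM, and the sources used here do not state whether strand was used. The 35 to 47 fragments estimated per library leave a counting error of 14.7% to 16.8%, which is more than the spread seen between libraries.

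U2AF2 (ENSG00000063244, chr19:55654146-55674715, plus strand), the large subunit, was the most abundant of the 10 genes at 106.0, 100.7 and 84.4 FPKM in S34F and 100.9, 103.4 and 91.8 FPKM in WT libraries. Replicate 3 was the lowest in both groups. The means of 97.0 ± 11.3 and 98.7 ± 6.12 FPKM (SD, n = 3 each) differed by a log2 fold change of -0.03 (SE 0.119), with an interval of 0.806-fold to 1.19-fold (two-sided exact permutation p = 0.8). The U2AF1 and U2AF1L5 sum was 17.62%, 19.12% and 21.75% of the U2AF2 level in S34F and 18.54%, 17.42% and 18.38% in WT libraries. S34F replicate 3, where U2AF2 was lowest, had the highest ratio, and S34F replicate 1 lay within the WT range. The mean ratio was 19.5% ± 2.09 in S34F and 18.1% ± 0.605 in WT (two-sided exact permutation p = 0.4 on the log2 ratio, n = 3 each).

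SF1 (ENSG00000168066, chr11:64764606-64778786, minus strand), the branch point binding protein, had the smallest relative spread of the 10 genes. Its values were 42.7, 41.6 and 43.9 FPKM in S34F and 42.7, 41.3 and 42.7 FPKM in WT libraries. The groups overlapped, and the within-group coefficient of variation was 2.34%, where the median tested gene had 15.6%. Its log2 fold change was 0.02 (SE 0.0886), with an interval of 0.874-fold to 1.17-fold.

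SF3B1 (ENSG00000115524, chr2:197389784-197435091, minus strand), the U2 snRNP protein that is the most often mutated splicing factor in MDS with ring sideroblasts, was measured at 10.12, 10.04 and 12.18 FPKM in S34F and 10.39, 9.60 and 9.76 FPKM in WT libraries. The higher S34F mean rested on replicate 3, and the other S34F libraries lay within the WT range. The log2 fold change was 0.11 (SE 0.113), with an interval of 0.893-fold to 1.30-fold (two-sided exact permutation p = 0.3). Without S34F replicate 3 it was 0.02.

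ZRSR2 (ENSG00000169249, chrX:15790472-15823260, plus strand), which recognises the 3′ splice site of U12-type introns, was low and the most variable of the 10. It was measured at 1.49, 1.76 and 3.15 FPKM in S34F and at 2.23, 1.93 and 2.35 FPKM in WT libraries. S34F replicate 3 was above all WT libraries, and the other S34F libraries were below all of them. The within-group coefficient of variation was 30.3%, against a counting error of 9.28% to 14.9% from an estimated 45 to 116 fragments. The means of 2.13 ± 0.888 and 2.17 ± 0.217 FPKM (SD, n = 3 each) gave a log2 fold change of -0.05 (SE 0.199) and the widest interval, 0.695-fold to 1.34-fold (two-sided exact permutation p = 1). Without S34F replicate 3 the log2 fold change was -0.27, with an unadjusted limma p under 0.05 but an adjusted p = 0.456 after Benjamini-Hochberg, and 10.6% of all genes tested in that setting were also under 0.05 unadjusted. Of the windows of 100 bases in ZRSR2 transcripts, 4.50% also occur in the processed pseudogene ZRSR2P1, which had a mean of 0.951 FPKM.

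LUC7L2 (ENSG00000146963, chr7:139340359-139423457, plus strand), a U1 snRNP-associated protein that acts at the 5′ splice site and is deleted or mutated in myeloid disease, was measured at 15.9, 16.25 and 18.59 FPKM in S34F and 15.98, 16.16 and 13.17 FPKM in WT libraries. Replicate 3 of each group lay away from the rest, one above and one below, and the other 4 libraries lay between 15.9 and 16.25 FPKM. The log2 fold change was 0.16 (SE 0.123), the largest of the 10, with an interval of 0.909-fold to 1.37-fold (two-sided exact permutation p = 0.3). Without replicate 3 of both groups it was 0.0006. Of its exon bases, 21.8% are shared with an annotated readthrough gene, C7orf55-LUC7L2, that is not among the genes analysed here.

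PRPF8 (ENSG00000174231, chr17:1650629-1684882, minus strand), the U5 snRNP scaffold of the catalytic centre, was measured at 36.6, 36.7 and 31.8 FPKM in S34F and 36.4, 37.0 and 30.6 FPKM in WT libraries. Replicates 1 and 2 of both groups were close together, and replicate 3 was low in both. A log2 fold change of 0.02 (SE 0.12) resulted, with an interval of 0.829-fold to 1.23-fold.

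DDX41 (ENSG00000183258, chr5:177511577-177517469, minus strand), a DEAD-box helicase with germline and somatic mutations in myeloid neoplasia, was measured at 29.1, 26.5 and 24.1 FPKM in S34F and 24.5, 23.0 and 25.2 FPKM in WT libraries. Replicates 1 and 2 were higher in S34F, and replicate 3 was lower. The log2 fold change was 0.12 (SE 0.109), with an interval of 0.911-fold to 1.30-fold (two-sided exact permutation p = 0.3). Without replicate 3 of both groups it was 0.22, with an unadjusted limma p under 0.05 but an adjusted p = 0.268 after Benjamini-Hochberg, in a setting where 16.9% of all genes were under 0.05 unadjusted. Without S34F replicate 1, the highest library, it was 0.06.

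**Figure D2:**
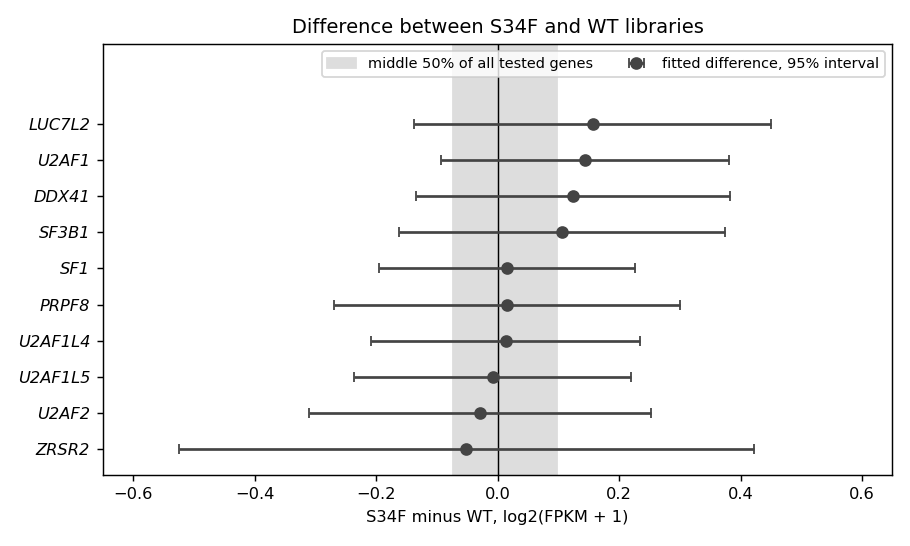
Log2 fold change (S34F minus WT, on log2(FPKM + 1)) of each of the 10 genes as a point, with its 95% interval from limma as a line, over a grey band for the middle 50% of all tested genes. Every interval includes 0, and that of ZRSR2 is the widest (0.695-fold to 1.34-fold).

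The levels covered a wide range. Ordered by the mean over the 6 libraries, U2AF2 came first, followed by SF1, PRPF8, DDX41, LUC7L2, SF3B1, U2AF1L5, U2AF1, ZRSR2 and U2AF1L4. U2AF2 had 2.3 times the level of SF1, and each library's U2AF2 value (84.4 FPKM or more) was above each SF1 value (43.9 or less). The ranges over libraries were also apart for each next pair down to LUC7L2 and SF3B1, and between U2AF1 and ZRSR2, which differed 4.1 times. They overlapped for SF3B1 and U2AF1L5, for U2AF1L5 and U2AF1, and for ZRSR2 and U2AF1L4, so these neighbours have no secure order. In FPKM, both U2AF1 copies together were below the level of U2AF2, the dimer partner of U2AF1, in every library. The limit given above for reads that match both copies holds for this comparison and for the place of the copies in the order.

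**Figure D3:**
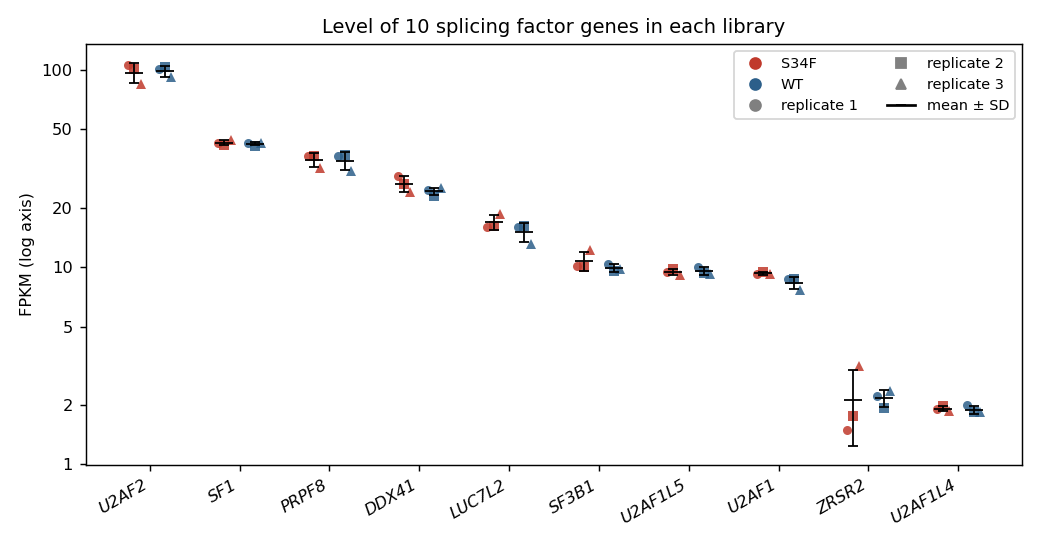
FPKM of the 10 genes in each of the 6 libraries on a log axis, ordered by mean level, with S34F in red, WT in blue, a marker shape for each replicate number and the group mean ± SD (n = 3) in black. U2AF2 lies highest (84.4 to 106.0 FPKM), and U2AF1L4 and ZRSR2 lie lowest, with overlapping ranges.

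Replicate 3 of both groups differed from the other libraries for part of the set. U2AF1L5, U2AF2 and PRPF8 were lower in replicate 3 of both groups than in all other libraries, as were 25.1% of all tested genes. SF1 and ZRSR2 were higher in both, as were 17.9% of all tested genes. With 3 and 2 of 10 genes, these shares were near those of the background. Fitting the replicate number as a block left 0 of the 10 genes with an unadjusted p under 0.05, against 4.05% of all genes. Whether the libraries numbered 3 shared a preparation or a run is not given in the sources used here, and their part in the values was not tested.

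**Figure D4:**
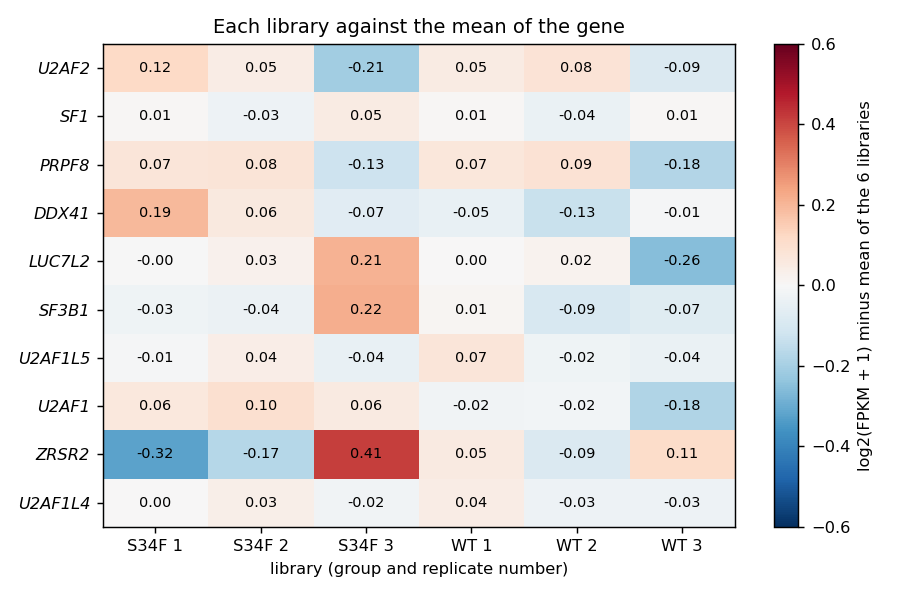
Deviation of each of the 6 libraries from the gene's mean over all libraries, on log2(FPKM + 1), for the 10 genes. U2AF2 and PRPF8 are low in replicate 3 of both groups, LUC7L2 is high in S34F replicate 3 and low in WT replicate 3, and ZRSR2 is highest in S34F replicate 3 (3.15 FPKM).

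The partners of these proteins were examined in 6 lists of spliceosome genes that together held 76 tested genes. Of the 76, 0 had an unadjusted limma p under 0.05, against the 2.39% of all genes, and 4 (5.26%) had groups that did not overlap, against the 7.38%. Their median log2 fold change was 0.04. That of all tested genes was 0.0145, so more of all tested genes lay above 0 than below. The share of all tested genes above 0 was not counted. The counts above and below 0 in the lists that follow therefore have no background and are descriptions only. Replicate 3 of both groups was low for 24 of them (31.6%) and high for 8 (10.5%).

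Among the U2 snRNP and branch site genes, which hold the SF3A and SF3B subunits and proteins that assemble with them, 20 genes were tested and 0 passed. Of these, 16 had log2 fold changes above 0 and 4 below, with a median of 0.06 and a range of -0.05 to 0.20. The median of all tested genes, 0.0145, was above 0 as well. The value farthest from 0 was that of UHMK1, a kinase with a U2AF homology motif that phosphorylates SF1. It was measured at 4.74, 4.73 and 7.89 FPKM in S34F and 4.44, 5.01 and 4.89 FPKM in WT libraries (log2 fold change 0.20, SE 0.188), so S34F replicate 3 alone was high. SF3B5, PHF5A and HTATSF1 were the 3 of 20 genes whose groups did not overlap, with all S34F libraries above the WT libraries, against 7.38% of all tested genes in either direction. They were picked out after their values were seen. PHF5A, a small SF3B subunit that lines the branch point pocket with SF3B1, was measured at 64.0, 65.9 and 63.1 FPKM in S34F and 59.2, 60.4 and 53.6 FPKM in WT libraries (log2 fold change 0.16, SE 0.0949).

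Among the minor spliceosome genes, the partners of ZRSR2, 11 of 16 reached the level for testing and 0 passed, with 8 log2 fold changes above 0 and 3 below. The value farthest from 0 was that of SNRNP48, a U11/U12 snRNP protein, at 4.21, 4.40 and 5.56 FPKM in S34F and 4.24, 3.96 and 3.20 FPKM in WT libraries. Its groups overlapped at replicate 1 (log2 fold change 0.25, SE 0.141). Among the U1 snRNP and 5′ splice site genes, the partners of LUC7L2, 10 were tested and 0 passed, with 6 log2 fold changes above 0 and 4 below. SNRNP70, which binds U1 snRNA directly, was farthest from 0. It was measured at 50.7, 38.8 and 43.6 FPKM in S34F and 49.3, 55.3 and 52.7 FPKM in WT libraries, and S34F replicate 1 lay within the WT range (log2 fold change -0.24, SE 0.125).

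Among the U5 and U4/U6 snRNP genes, the partners of PRPF8, 15 were tested and 0 passed, with 10 log2 fold changes above 0 and 5 below. TXNL4A, a U5 protein, was farthest from 0 at 0.19 (SE 0.181). Among 16 genes of the catalytic steps 0 passed, with 12 log2 fold changes above 0 and 4 below. BCAS2, a subunit of the PRPF19 complex, was farthest from 0 at 0.28 (SE 0.193), with S34F replicate 3 at 27.1 FPKM above the 14.5 to 18.7 FPKM of the other libraries.

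Of the other splicing genes mutated in MDS, 5 of 6 were tested and 0 passed. SRSF2, an SR protein that binds exonic enhancers and is mutated in MDS, was farthest from 0. It was measured at 20.96, 21.89 and 19.65 FPKM in S34F and 24.25, 24.12 and 25.01 FPKM in WT libraries. All 3 S34F libraries were below all 3 WT libraries, by a log2 fold change of -0.22 (SE 0.095) that did not pass limma's test (adjusted p = 1 after Benjamini-Hochberg). Of all tested genes, 7.38% had groups that did not overlap. Over 16 settings, the fit given here included, the log2 fold change of SRSF2 ran from -0.26 to -0.17. Its unadjusted limma p was under 0.05 in 4 others. They were no filter, a mean of at least 5 FPKM, without S34F replicate 3 and without replicate 3 of both groups. In the last pair, 10.6% and 16.9% of all genes were also under 0.05. The lowest adjusted p of SRSF2 in the 4 was 0.234 after Benjamini-Hochberg.

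**Figure D5:**
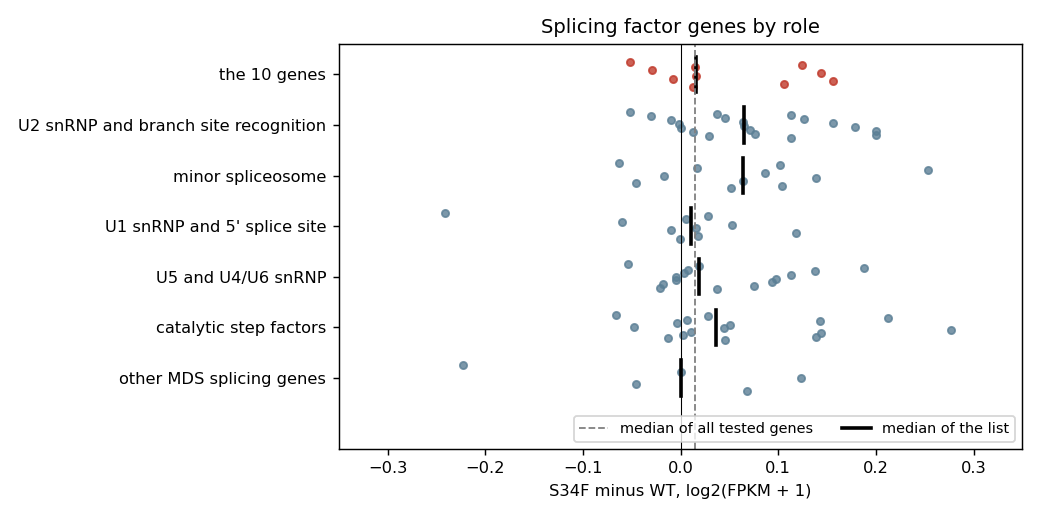
Log2 fold change (S34F minus WT, on log2(FPKM + 1)) of each tested gene as a point, in rows for the 10 genes (red) and the 6 spliceosome lists (blue), with the median of each row as a short black line and that of all tested genes as a dashed line. Points are shifted vertically only to keep them apart. The lowest values are SNRNP70 (-0.24) and SRSF2 (-0.22), and the highest is BCAS2 (0.28).

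The genes whose levels most resembled the sum of U2AF1 and U2AF1L5 over the 6 libraries were sought among 5647 genes with a mean of at least 5 FPKM, by Pearson's r of log2(FPKM + 1). The highest were FBXO45 (r = 0.985), SNRPC (0.984), ELF4 (0.982), UQCR10 (0.98) and RPL26L1 (0.974), and 80 genes (1.42%) had an r of at least 0.9. SNRPC is the U1 snRNP C protein, FBXO45 an F-box protein, ELF4 an ETS transcription factor, UQCR10 a subunit of respiratory complex III and RPL26L1 a ribosomal protein paralogue. Beside the pair in the sum itself, 6 of the 10 genes reached 5 FPKM, and among these 6 PRPF8 (r = 0.72) and LUC7L2 (0.666) were nearest, U2AF2 had an r of 0.39 and SF1 of -0.155. The 6 points share library and depth differences, including the low WT replicate 3, so these values are descriptions.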

How the data were processed

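RNA-seq was made from 6 libraries, 3 with the S34F form of U2AF1 and 3 with the wild-type form by their labels, and groups and replicate numbers were taken from the sample titles. The authors deposited 1 table of FPKM values per gene. Its name speaks of raw counts, but the values are not whole. The submitters' processing notes name StringTie, and the aligner, genome build, annotation and strand setting are not given in the sources used here. The deposited fold changes, p-values and q-values hold the authors' own comparison and were not used.

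FPKM were analysed as deposited, as log2(FPKM + 1), for genes with a mean of at least 1 FPKM, using limma 3.58.1 in R 4.3.3 with a mean-variance trend and Benjamini-Hochberg adjustment over all tested genes. Single sums and ratios were compared by two-sided exact permutation tests in Python 3.11.15 with scipy 1.17.1. The fit was tested on simulated data. The 10 genes, the 6 spliceosome lists and the marker lists were chosen with earlier results of these data known. All 10 genes are named, with the genes under an unadjusted p of 0.05 in each spliceosome list or, where there was none, the gene with the largest absolute log2 fold change, and the 5 genes most like the U2AF1 and U2AF1L5 sum. SUGP1, of the U2 list, was not analysed here.

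Depth was approximated from the steps in FPKM times length of genes with a single transcript that has a single exon of at least 500 bases. It gives counting error only. Positions, transcripts and sequences came from GENCODE 29 (GRCh38), which held 31002 of the 31142 gene identifiers and may not be the annotation behind the table.

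Deviations from the group means correlated between libraries with the same replicate number (r = 0.212, 0.174 and 0.38 for replicates 1, 2 and 3). The labels do not say what these libraries share. S34F replicate 2 with WT replicate 1 gave 0.197, and S34F replicate 1 with WT replicate 2 gave 0.134. Matching by number was thus seen for replicate 3 only. The deviations within a group sum to 0, so these values depend on each other. The main limma fit and the permutation tests given above did not pair the libraries by number. Alternatives were the replicate block, other scalings, pseudocounts and filters, and leaving out each replicate.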

Additional observations from a re-analysis of the deposited data

How the results depend on the processing

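Scaling by median ratios or upper quartiles moved the median log2 fold change of all genes by -0.0038 and -0.00125, and none of the 10 genes gained an unadjusted p under 0.05 with either, with the other pseudocount, the other filters or the replicate block. The fit with replicate number as a block had 443 genes with an unadjusted p under 0.05 against 262 without it. Without a filter there were 904, and with a mean of at least 5 FPKM, which drops ZRSR2 and U2AF1L4, 113. Leaving out replicates gave 165 to 1847, with 1159 without S34F replicate 3 and 1847 without replicate 3 of both groups, and 0 to 8 genes with an adjusted p under 0.05. Of the 10 genes, 1 had an unadjusted p under 0.05 without S34F replicate 3 (ZRSR2) and 1 without replicate 3 of both groups (DDX41). Of the 76 listed spliceosome genes, 1 had an unadjusted p under 0.05 without a filter and 1 at a mean of at least 5 FPKM (SRSF2 in both). Of all genes, 904 and 113 had one in these settings. With replicates left out, 0 to 9 of the 76 had one. Without S34F replicate 1 the count was 1 (SNRNP70), against 235 of all genes. It was 3 without S34F replicate 3 and 9 without replicate 3 of both groups. The 904, 113 and 235 are given as numbers and not as shares, so the counts of 1 are descriptions only. Of all tested genes, 10.6% had one without S34F replicate 3 and 16.9% without replicate 3 of both groups.

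With replicates left out, the log2 fold change changed sign for 6 genes whose values lay near 0, ranging from -0.0295 to 0.0269 for U2AF1L5, -0.00096 to 0.0377 for U2AF1L4, -0.0953 to 0.0673 for U2AF2, -0.0037 to 0.0345 for SF1, -0.272 to 0.0965 for ZRSR2 and -0.0702 to 0.0815 for PRPF8. The other 4 were above 0 in each of these fits, at 0.0895 to 0.172 for U2AF1, 0.012 to 0.15 for SF3B1, 0.0006 to 0.205 for LUC7L2 and 0.0589 to 0.217 for DDX41. The causes were not tested. The p-values rest on 3 libraries a group, and U2AF1L4 and ZRSR2 have the fewest estimated fragments of the 10 genes.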
